A study of Homo sapiens with 20 samples.

Results

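The transcripts described here encode the subunits of the vacuolar H+-ATPase (V-ATPase) and the proteins that hold and control mTORC1, the growth-controlling kinase complex, on the lysosome. They were taken from the deposited gene tables by symbol, as every symbol that starts with ATP6V0 or ATP6V1 and a letter, plus 23 named genes, and the rule found 49 of the 45372 symbols. The 49 were 13 subunits of the V1 sector, 9 of the V0 sector, 2 accessory subunits, 5 Ragulator subunits, 4 Rag GTPases, 3 folliculin complex members, 3 GATOR1 subunits, 3 mTORC1 core subunits, 3 members of the TSC and RHEB group, and 4 symbols that only share the prefix. RNA came from HEK293T, a transformed line grown from human embryonic kidney, and was read by stranded mRNA sequencing in 4 libraries per condition, which the submitters call biological replicates. The conditions were HUWE1 siRNA without a set number, called set 1 here, and its own non-targeting siRNA controls, and HUWE1 siRNA of sets 2 and 3 with 1 group of non-targeting controls shared by both. HUWE1 is an E3 ubiquitin ligase of the HECT family, and siRNA lowers its transcript without deleting the gene. The siRNA sequences, the time after transfection and the difference between the 3 sets are not stated in the labels.

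The V-ATPase pumps protons into lysosomes, endosomes and the Golgi. Its cytosolic V1 sector splits ATP and turns a rotor, and its membrane sector V0 carries the protons. On the lysosome the pump and the Ragulator scaffold hold the Rag GTPases, which recruit mTORC1 when amino acids are present. GATOR1 turns off RagA and RagB, the folliculin complex acts on RagC and RagD, and the TSC complex turns off RHEB, the GTPase that switches the recruited kinase on. HEK293 derivatives are a standard line for work on this pathway.

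The HUWE1 transcript itself checked the labels. In TPM, the transcript level scaled for transcript length and library total, it averaged 85.03 ± 1.72 TPM in set 1 HUWE1 siRNA libraries and 157 ± 3.57 TPM in their controls (SD, n = 4 each), which is 54.1% of the control mean. In the second table it averaged 94.6 ± 2.26 TPM in set 2, 84.8 ± 5.42 TPM in set 3 and 163 ± 3.49 TPM in the shared controls, or 57.9% and 51.9% of control. The groups did not overlap in any set, and the two-sided exact permutation test gave p = 0.0286 in each, the smallest that 4 against 4 libraries allow. The HEK293T genes LIN28B, IGF2BP1, NEFM, NEFL, CDH2 and VIM were expressed in every group, and of these 6, 1 was higher and 4 lower in set 1 and 0 higher and 2 lower in set 3, or 1 and 2 without the controls named below, at the threshold used below. Of markers the line should lack, HBB was at 0 throughout, PTPRC and ALB stayed under 1 TPM, and CD3E and PECAM1 averaged 1.60 and 1.69 TPM in set 1 and under 1 TPM in sets 2 and 3. COL1A1 averaged between 6.03 and 10.9 TPM over the groups. Those of the 6 that were tested were not called in any set. The lowest correlation between libraries of a group, on the log2 scale, was 0.980 among the shared controls and between 0.992 and 0.995 in the other 4 groups. Within that group, replicates 1 and 4 stood apart for several V1 transcripts, with ATP6V1E1 at 59.2 TPM in replicate 1 and 96.5 TPM in replicate 4. The set 3 counts and the values of the genes called in set 3 are therefore given with and without them. The pair was picked from the members' own values. For ATP6V1E1 it holds the lowest and the highest control, so leaving both out narrows the control spread by construction. A smaller p-value without the pair is thus no added support for a call. Mitochondrially encoded genes took 15.5 to 16.4% of the TPM in set 3 and 16.6 to 18.3% in its controls, and their part in the set 3 results was not tested beyond the scaling without them.

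Of the 49 symbols, 45 were tested in each table because they reached 1 TPM in at least 4 of its libraries. ATP6V0A4, ATP6V0D2, ATP6V1FNB and ATP6V1G3 did not, and ATP6V1G3 was listed at 0 in every library. Of these, ATP6V0A4 is known as a kidney form of subunit a and ATP6V0D2 as an osteoclast form of subunit d. ATP6V1B1 reached 1 TPM in 6 of 8 libraries of the first table, and all other tested members did in every library of both tables. Each test was limma's, on log2(TPM + 1), with the p-value adjusted over all genes of the table, and a gene is called when that adjusted p is under 0.05. Log2 fold changes are on this scale, which understates the change of low genes.

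With HUWE1 siRNA, members of this group changed by small amounts and mostly upward in sets 1 and 3, and none passed the test in set 2. In set 1, 14 members were higher and 7 lower at a limma adjusted p under 0.05, which is 46.7% of the 45 tested, while 30.3% of all 16057 genes tested were called, 12.3% higher and 17.9% lower. At an unadjusted p under 0.05 there were 24 members, against 41.9% of all genes. In set 3, 11 were higher and 2 lower, or 28.9% of the 45, against 11.6% of all 15860 genes tested, 7.45% higher and 4.15% lower. At an unadjusted p under 0.05 there were 19, against 34.5% of all genes. In set 2 the count was 0 by limma's adjusted p, with 3 members at an unadjusted p under 0.05. There 0.0126% of all genes were called, or 2 of 15860, and 8.83% had an unadjusted p under 0.05. The median log2 fold change of the tested members was 0.05 in set 1, 0.01 in set 2 and 0.04 in set 3, beside −0.01, −0.00 and 0.01 over all genes tested. The 21 tested V-ATPase subunit genes had 9 higher and 2 lower in set 1, or 52.4%, and 8 higher and 1 lower in set 3, or 42.9%, with medians of 0.05 and 0.16. The 21 mTORC1 regulators had 5 higher and 4 lower in set 1, or 42.9%, and 3 higher and 1 lower in set 3, or 19.0%, with medians of 0.07 and −0.00. The counts of smaller role groups below are to be read beside the same shares of all genes. These are 30.3% in set 1 and 11.6% in set 3, or 20.6% without control replicates 1 and 4. In RNA from whole cultures a change in the share of cells in a given state cannot be told apart from a change in RNA per cell.

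The separation of single libraries gave counts of like size. The 4 HUWE1 siRNA values lay all above the 4 control values for 14 members and all below for 6 in set 1, where 13.3% and 18.4% of all genes did so, 31.7% in all. In set 3 this held for 11 members above and 3 below, against 11.2% and 6.03% of all genes, 17.2% in all. In set 2 it held for 0 above and 1 below, against 1.99% and 1.71%, 3.69% in all. The set 3 count moved with the scaling of the libraries. Its 11 higher and 2 lower members became 8 and 2 after median-of-ratios scaling, 9 and 2 after quantile normalization and 6 and 3 when TPM was recomputed without mitochondrially encoded genes. The 8 higher and 1 lower V-ATPase genes of set 3 became 5 and 1, 6 and 1, and 4 and 1, and its 3 higher and 1 lower mTORC1 regulators became 3 and 1, 3 and 1, and 2 and 2. Over all genes, the 1181 higher and 658 lower calls of set 3 became 922 and 965, 1023 and 929, and 687 and 862 under the same 3 scalings. Without shared control replicates 1 and 4, set 3 had 11 members higher and 1 lower, and 10 of the 13 kept their call. The members called were then 26.7% of the 45, against 20.6% of all genes, with 1891 higher and 1354 lower. Of the members not called with all controls, ATP6V0C and ATP6V0E2-AS1 passed without the pair.

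**Figure D1:**
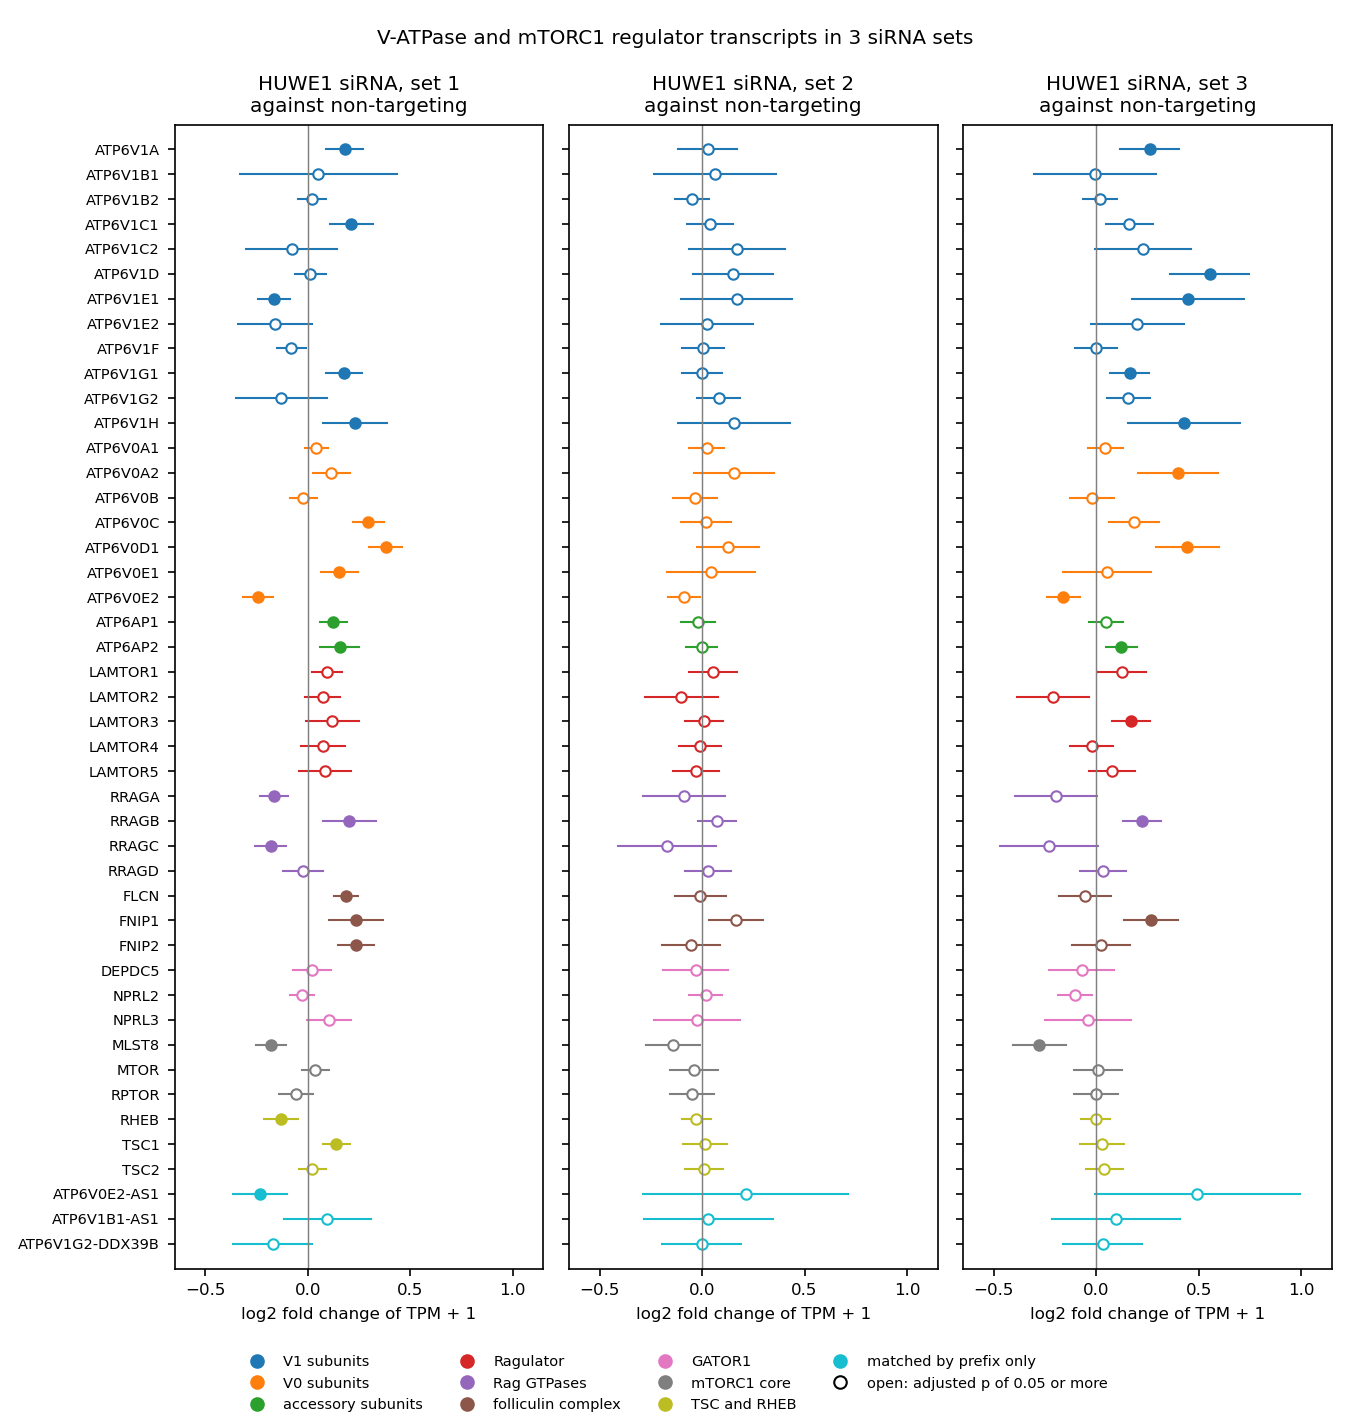
Log2 fold change of TPM + 1 (x axis) for the 45 tested members (rows, coloured by role), HUWE1 siRNA over non-targeting siRNA in sets 1, 2 and 3, with 95% confidence intervals from limma; filled points have an adjusted p under 0.05. Filled points number 21 in set 1, 0 in set 2 and 13 in set 3, and the fold changes lie between −0.28 and 0.55.

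The calls of sets 1 and 3 met in 10 members. Of these, 9 had the same sign, namely ATP6AP2, ATP6V0D1, ATP6V1A, ATP6V1G1, ATP6V1H, FNIP1 and RRAGB, which were higher in both sets, and ATP6V0E2 and MLST8, which were lower in both. The 9 are 42.9% of the members called in set 1 and 69.2% of those called in set 3, and over all genes the shares were 14.5% and 38.2%. ATP6V1E1 was called in opposite directions. These counts and shares use all controls, and the shares were not computed without the pair of shared controls that stood apart. Without that pair, ATP6AP2, ATP6V1G1 and ATP6V0E2 lost their set 3 calls (limma adjusted p = 0.0579, 0.0643 and 0.0518). ATP6V0C, higher in set 1, and ATP6V0E2-AS1, lower in set 1, were then called higher in set 3. Of the 9, only ATP6V0D1 kept its call in both sets under every alternative run. The difference between sets 1 and 3 was not tested, because they come from separate tables with separate controls.

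For the promoters of the 9, RefSeq's GRCh38.p14 table held an entry for 6, and the 250 bases before each listed start were searched on both strands for CACGTG, a palindromic E-box core that is bound by MYC with MAX and by TFEB and its relatives. It was present for 5 of the 6, which is 83.3%, and absent from ATP6AP2. Among all symbols of the TPM tables with a promoter entry, expressed or not, it was present for 9.24% of 17428. The 6 are all expressed, and the share among tested genes alone was not computed. Over the whole group, the 6 included, it was found for 4 of 17 V-ATPase genes, or 23.5%, and 6 of 18 mTORC1 regulators, or 33.3%. The longer TCACGTGA and GTCACGTG contain it and were present for 1.38% and 3.49% of all those symbols, against 3 and 4 of the 6. The 6 were chosen by their calls, so these counts are a description and no binding was measured. For each of the 5 genes that hold the motif, 1 window is shown because these transcripts were called with the same sign in sets 1 and 3, with CACGTG in capitals, read 5′ to 3′ on the gene's strand.
ATP6V0D1, higher in both sets, chr16:67481158-67481407, minus strand: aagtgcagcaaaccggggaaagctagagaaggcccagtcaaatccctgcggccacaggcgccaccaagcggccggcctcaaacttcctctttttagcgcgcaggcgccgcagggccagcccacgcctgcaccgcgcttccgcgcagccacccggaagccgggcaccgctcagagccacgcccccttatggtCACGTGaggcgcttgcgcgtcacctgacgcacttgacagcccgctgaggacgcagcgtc
ATP6V1G1, higher in both sets, chr9:114587519-114587768, plus strand: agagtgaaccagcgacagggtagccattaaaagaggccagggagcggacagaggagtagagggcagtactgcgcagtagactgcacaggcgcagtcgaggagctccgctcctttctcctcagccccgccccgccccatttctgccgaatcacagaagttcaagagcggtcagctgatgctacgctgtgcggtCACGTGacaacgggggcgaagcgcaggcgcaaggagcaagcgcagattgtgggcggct
FNIP1, higher in both sets, chr5:131797018-131797267, minus strand: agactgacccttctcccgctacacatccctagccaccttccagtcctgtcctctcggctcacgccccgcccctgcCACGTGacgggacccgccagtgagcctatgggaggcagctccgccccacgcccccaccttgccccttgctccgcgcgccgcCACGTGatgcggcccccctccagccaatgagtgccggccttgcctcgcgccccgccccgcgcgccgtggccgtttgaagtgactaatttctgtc
RRAGB, higher in both sets, chrX:55717499-55717748, plus strand: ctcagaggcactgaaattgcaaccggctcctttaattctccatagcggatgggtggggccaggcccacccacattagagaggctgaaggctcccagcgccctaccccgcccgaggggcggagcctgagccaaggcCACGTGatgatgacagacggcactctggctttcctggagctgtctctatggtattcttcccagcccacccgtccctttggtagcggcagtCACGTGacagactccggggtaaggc
ATP6V0E2, lower in both sets, chr7:149872718-149872967, plus strand: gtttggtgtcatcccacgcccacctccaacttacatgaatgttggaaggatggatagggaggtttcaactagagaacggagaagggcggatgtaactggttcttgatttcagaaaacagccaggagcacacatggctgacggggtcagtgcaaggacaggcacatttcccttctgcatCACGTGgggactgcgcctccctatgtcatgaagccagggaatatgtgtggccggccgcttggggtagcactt
The motif began 59 bases before the start of ATP6V0D1, 58 before that of ATP6V1G1, and 72 before that of ATP6V0E2. A further listed start of ATP6V0E2 has a nearly identical window with the motif at 68 bases. Another listed start of this gene had no copy in its 250 bases. FNIP1 had it at 175 and 94 bases, and RRAGB at 115 and 25 bases. With all controls 4 of these genes were called higher and 1 lower, and all carried the same 6 letters. The set 3 calls of ATP6V1G1 and ATP6V0E2 did not hold without control replicates 1 and 4. Nor did that of ATP6AP2, which lacks the motif. Of the members outside the 9, ATP6V0B held the motif at 57 and 39 bases, LAMTOR1 at 165, LAMTOR4 at 14, RRAGC at 112 and TSC2 at 114. Of these only RRAGC was called, and it was lower in set 1.

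V1 is the sector that splits ATP, and 12 of its 13 subunit genes were tested. Set 1 had 4 higher and 1 lower, set 3 had 5 higher and 0 lower, or 4 and 0 without control replicates 1 and 4, and set 2 had 0. With all controls that is 41.7% of the 12 in set 1 and in set 3, against 30.3% and 11.6% of all genes. ATP6V1A encodes the catalytic subunit A (chr3:113747019-113812056, plus strand). It had 40.2, 39.4, 42.1 and 41.4 TPM in the set 1 HUWE1 siRNA libraries, against 35.1, 33.6, 36.8 and 38.1 TPM in their controls. In the second table the values were 57.2, 50.1, 50.8 and 50.2 TPM in set 2, 62.4, 58.02, 63.5 and 61.5 TPM in set 3 and 47.5, 50.4, 48.3 and 58.4 TPM in the shared controls. The set 1 groups did not overlap, whereas in set 3 the lowest HUWE1 library fell just under the highest control, which was replicate 4. The log2 fold change was 0.18 ± 0.041 (SE; limma adjusted p = 0.00871) in set 1 and 0.26 ± 0.066 (SE; limma adjusted p = 0.0324) in set 3, or 0.31 without control replicates 1 and 4 (limma adjusted p = 0.0105). For set 2 it was 0.03 ± 0.066 (SE; limma adjusted p = 0.888).

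ATP6V1C1 encodes subunit C, which joins V1 to V0 and leaves when the sectors part. Its levels were 27.9, 26.04, 29.5 and 29.4 TPM with HUWE1 siRNA in set 1, against 24.4, 22.8, 25.4 and 24.3 TPM in controls. They were 39.6, 35.1, 36.04 and 37.8 TPM in set 2, 40.2, 38.3, 41.3 and 42.3 TPM in set 3 and 33.9, 35.5, 36.8 and 38.4 TPM in the shared controls. Every set 1 HUWE1 library exceeded every control, and in the second table the highest control lay above the lowest set 3 library. ATP6V1C1 rose by 0.21 ± 0.047 (SE; limma adjusted p = 0.00757) in set 1. Its set 3 value of 0.16 ± 0.052 (SE; limma adjusted p = 0.0581) did not pass, nor did 0.16 without control replicates 1 and 4 (limma adjusted p = 0.0664).

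ATP6V1D encodes subunit D, the central shaft of the rotor (chr14:67294371-67360265, minus strand), and had the largest fold change of any tested member in set 3. It had 22.3, 20.7, 21.1 and 21.7 TPM in set 1, against 21.0002, 21.9, 21.4 and 20.8 TPM in controls. With the second table's siRNAs it had 34.7, 31.2, 31.05 and 30.9 TPM in set 2 and 39.96, 40.3, 44.6 and 45.2 TPM in set 3, against 24.1, 28.8, 27.7 and 34.8 TPM in the shared controls. The set 1 groups lay on top of each other, while all set 3 libraries stood above all controls by a margin of several TPM. Control replicate 1 was the lowest of its group and replicate 4 the highest. The log2 fold change was 0.55 ± 0.090 (SE; limma adjusted p = 0.00836) in set 3 and 0.57 (limma adjusted p = 0.00263) without those 2 controls. It was 0.01 ± 0.034 (SE; limma adjusted p = 0.826) in set 1 and 0.15 ± 0.090 (SE; limma adjusted p = 0.612) in set 2.

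ATP6V1E1 encodes subunit E of the outer stalks (chr22:17592136-17628818, minus strand). With all controls it was the only member called with opposite signs in sets 1 and 3. The values were 45.96, 45.1, 44.4 and 47.9 TPM with HUWE1 siRNA in set 1, against 51.05, 52.4, 53.7 and 48.9 TPM in controls. They were 97.9, 81.8, 80.97 and 80.1 TPM in set 2, 97.3, 92.8, 115 and 109.6 TPM in set 3 and 59.2, 79.9, 70.8 and 96.5 TPM in the shared controls. All set 1 HUWE1 libraries lay below all of their controls. In set 3 the groups overlapped, because control replicate 4 was above HUWE1 replicate 2, and the shared controls spread more widely than any HUWE1 group. ATP6V1E1 fell by 0.16 ± 0.036 (SE; limma adjusted p = 0.00717) in set 1 and rose by 0.45 ± 0.126 (SE; limma adjusted p = 0.0417) in set 3. Without control replicates 1 and 4 the set 3 value was 0.45 (limma adjusted p = 0.0149).

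ATP6V1G1 encodes subunit G, the partner of E in the stalks (chr9:114587746-114598373, plus strand). Levels of 161, 161, 161 and 171 TPM in set 1 HUWE1 libraries compared with 141, 135, 152 and 149.8 TPM in controls. In the second table they were 212, 201, 224 and 226 TPM in set 2, 246, 235, 249.6 and 234 TPM in set 3 and 206, 216, 219 and 221 TPM in controls. Neither set 1 nor set 3 overlapped its controls, and set 2 lay across them. The rise was 0.18 ± 0.039 (SE; limma adjusted p = 0.00784) in set 1 and 0.16 ± 0.045 (SE; limma adjusted p = 0.0399) in set 3, and without control replicates 1 and 4 the set 3 value was 0.15 (limma adjusted p = 0.0643), past the threshold no longer. ATP6V1H, the regulatory subunit H, rose by 0.23 ± 0.070 (SE; limma adjusted p = 0.0315) in set 1 and 0.43 ± 0.126 (SE; limma adjusted p = 0.0469) in set 3. Its shared controls ran from 15.7 TPM in replicate 1 to 25.6 TPM in replicate 4, and without both the set 3 value was 0.44 (limma adjusted p = 0.0179). The other tested V1 genes, ATP6V1B1, ATP6V1B2, ATP6V1C2, ATP6V1E2, ATP6V1F and ATP6V1G2, were not called in any set.

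V0 carries the protons, and 7 of its 9 subunit genes were tested, with 3 higher and 1 lower in set 1, 2 higher and 1 lower in set 3, or 3 and 0 without control replicates 1 and 4, and 0 in set 2. With all controls that is 57.1% of the 7 in set 1 and 42.9% in set 3, against 30.3% and 11.6% of all genes. ATP6V0D1 encodes subunit d, which couples the rotor to the proton-carrying ring (chr16:67438014-67481237, minus strand). It had 16.8, 17.8, 17.1 and 17.3 TPM in the set 1 HUWE1 libraries, against 13.5, 12.6, 13.2 and 12.7 TPM in controls. The second table gave 19.5, 17.2, 17.3 and 16.4 TPM in set 2, 23.2, 21.3, 21.9 and 22.1 TPM in set 3 and 14.7, 17.03, 14.7 and 17.8 TPM in the shared controls. Sets 1 and 3 stood clear of their controls, and set 2 overlapped them through control replicates 2 and 4. ATP6V0D1 rose by 0.38 ± 0.037 (SE; limma adjusted p = 0.000144) in set 1 and 0.44 ± 0.070 (SE; limma adjusted p = 0.00726) in set 3, or 0.46 without control replicates 1 and 4 (limma adjusted p = 0.00647). Its set 2 value was 0.13 ± 0.070 (SE; limma adjusted p = 0.602), with a 95% interval of −0.02 to 0.28.

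ATP6V0C encodes the main proteolipid of the ring (chr16:2513870-2520218, plus strand). It had 172, 189, 183 and 184 TPM in set 1 HUWE1 libraries, against 147, 147, 143 and 155 TPM in controls, with no overlap. In the second table it had 203, 192, 190.4 and 176 TPM in set 2, 214, 209.9, 214 and 216 TPM in set 3 and 183, 198, 170.1 and 201 TPM in controls. All set 3 libraries were above all controls, and set 2 was not. The set 1 rise was 0.29 ± 0.034 (SE; limma adjusted p = 0.000334). The set 3 value of 0.18 ± 0.056 (SE; limma adjusted p = 0.0519) missed the threshold, and without control replicates 1 and 4 it was 0.22 (limma adjusted p = 0.0381).

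ATP6V0E2 encodes a form of the small subunit e (chr7:149872968-149891204, plus strand) and went the other way. It had 42.7, 43.97, 41.3 and 43.02 TPM with HUWE1 siRNA in set 1, against 50.7, 50.6, 48.5 and 53.1 TPM in controls. It had 46.9, 47.6, 47.3 and 45.9 TPM in set 2, 44.1, 45.8, 44.6 and 43.8 TPM in set 3 and 51.9, 48.3, 48.6 and 50.8 TPM in the shared controls. In each of the 3 sets every HUWE1 library was below every control, and no other member did so. The fall was 0.24 ± 0.033 (SE; limma adjusted p = 0.000762) in set 1 and 0.16 ± 0.036 (SE; limma adjusted p = 0.0238) in set 3, while the set 2 value of −0.09 ± 0.036 (SE; limma adjusted p = 0.523) did not pass. Without control replicates 1 and 4 the set 3 value was −0.12 (limma adjusted p = 0.0518). The other form of the subunit, ATP6V0E1, rose by 0.15 ± 0.041 (SE; limma adjusted p = 0.0178) in set 1 and was not called elsewhere.

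Subunit a, which anchors the stator, is made in several forms. ATP6V0A2, a form known from the Golgi, had 13.8, 12.8, 13.9 and 14.4 TPM in the set 3 HUWE1 libraries, against 8.86, 10.2, 9.72 and 12.1 TPM in the shared controls. The groups did not overlap, and the rise was 0.40 ± 0.090 (SE; limma adjusted p = 0.0234), or 0.43 without control replicates 1 and 4 (limma adjusted p = 0.0115). In set 1 its value was 0.12 ± 0.041 (SE; limma adjusted p = 0.0565). ATP6V0A1, the form with the highest level, and ATP6V0B, a second proteolipid, were not called in any set.

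**Figure D2:**
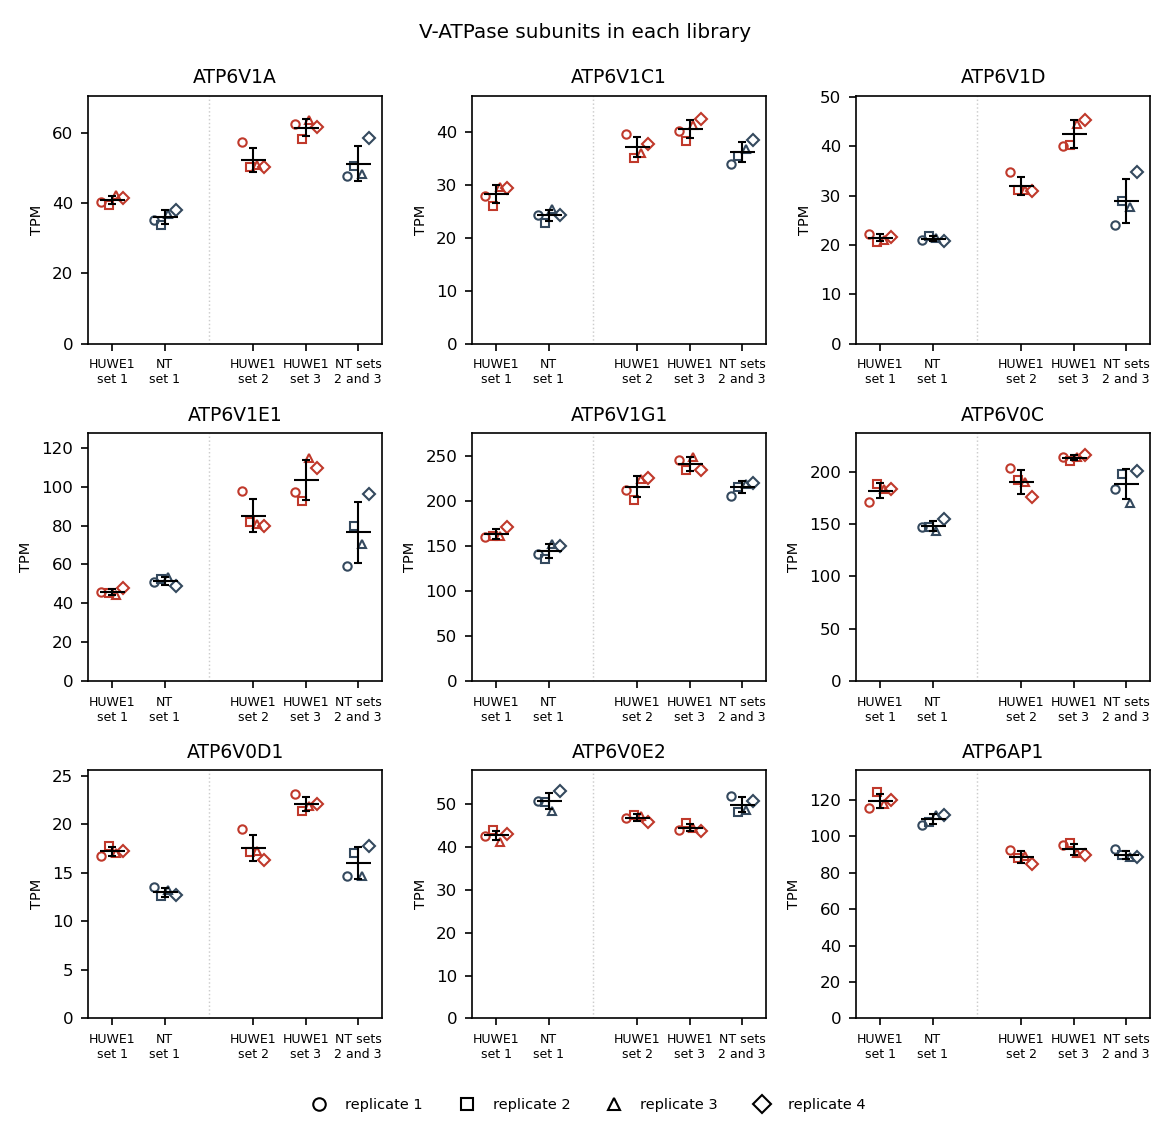
TPM (y axis, from 0) of 9 V-ATPase genes in each library, HUWE1 siRNA in red and non-targeting siRNA (NT) in dark blue, with replicates 1 to 4 as symbols and the mean ± SD in black. The dotted line separates the 2 tables, which have separate controls. ATP6V0D1 is above its controls in sets 1 and 3, ATP6V0E2 below them in all 3 sets, and ATP6V1E1 below in set 1 only.

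Both accessory subunits, which take part in building the pump, rose in set 1. ATP6AP1 (chrX:154428632-154436516, plus strand) had 115, 124, 118 and 120.0 TPM in set 1 HUWE1 libraries, against 106, 108, 112 and 112 TPM in controls. In the second table it had 92.5, 88.2, 89.01 and 85.02 TPM in set 2, 94.999, 96.2, 90.8 and 89.8 TPM in set 3 and 92.95, 89.95, 88.4 and 88.4 TPM in controls. The set 1 groups did not overlap and the others did. ATP6AP1 rose by 0.12 ± 0.029 (SE; limma adjusted p = 0.0105) in set 1 and had 0.05 ± 0.039 (SE; limma adjusted p = 0.407) in set 3. ATP6AP2, also known as the prorenin receptor, rose by 0.16 ± 0.043 (SE; limma adjusted p = 0.0211) in set 1 and 0.12 ± 0.035 (SE; limma adjusted p = 0.0444) in set 3, where the value without control replicates 1 and 4 was 0.12 (limma adjusted p = 0.0579).

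Levels within the pump differed widely per unit length. ATP6V1F, a rotor subunit, had the highest level of all members in each group, with 468 ± 18.8 TPM in set 1 HUWE1 libraries and 495 ± 12.4 TPM in controls (SD, n = 4 each). It had 562 ± 30.3 TPM in set 2, 559.8 ± 26.5 TPM in set 3 and 560.3 ± 13.6 TPM in the shared controls. ATP6V0C followed in both set 1 groups. ATP6V1B2 made up 97.2 ± 0.924% of the TPM of subunit B in set 1 HUWE1 libraries and 97.3 ± 0.918% in controls, and ATP6V0D1 made up 98.1 ± 0.416% and 97.9 ± 0.754% of subunit d. ATP6V0E2 made up 28.5 ± 1.04% of subunit e in set 1 HUWE1 libraries and 34.5 ± 1.62% in controls. The same share was 31.3 ± 2.68% in set 2, 30.001 ± 2.004% in set 3 and 33.3 ± 2.83% in the shared controls. ATP6V0A2 made up 24.2 ± 0.838% of the a forms in set 3, 21.4 ± 1.51% in set 2 and 19.7 ± 1.48% in the shared controls. In set 1 it made up 13.2 ± 0.436% with HUWE1 siRNA and 12.8 ± 0.423% in controls. There TCIRG1, a further a form, made up 10.8 ± 0.411% and 8.63 ± 0.552%. These shares include called transcripts and are given with no test.

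Ragulator is the scaffold of 5 small proteins, LAMTOR1 to LAMTOR5, that ties the Rags to the lysosome. None of the 5 passed in set 1 or set 2, by limma's adjusted p, with 1 at an unadjusted p under 0.05 in set 1 and 0 in set 2, and 1 rose in set 3. In set 1 the 5 log2 fold changes were all positive, between 0.07 and 0.12. LAMTOR3 (chr4:99878336-99894490, minus strand) had 24.1, 21.6, 25.4 and 24.2 TPM in set 1 HUWE1 libraries, against 20.5, 20.8, 23.7 and 22.3 TPM in controls. It had 33.3, 34.4, 33.1 and 32.7 TPM in set 2, 38.7, 35.4, 36.7 and 38.99 TPM in set 3 and 31.4, 33.4, 33.4 and 34.3 TPM in the shared controls. Set 3 alone did not overlap its controls. The rise there was 0.17 ± 0.043 (SE; limma adjusted p = 0.0325), or 0.16 without control replicates 1 and 4 (limma adjusted p = 0.0409), and the set 1 value was 0.12 ± 0.058 (SE; limma adjusted p = 0.148). LAMTOR2, the subunit with the highest level, had log2 fold changes of 0.07 ± 0.038 (SE; limma adjusted p = 0.170) in set 1 and −0.21 ± 0.082 (SE; limma adjusted p = 0.0942) in set 3, or −0.21 without control replicates 1 and 4 (limma adjusted p = 0.0528).

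The Rag GTPases work as pairs of RagA or RagB with RagC or RagD, and of their 4 transcripts 1 rose and 2 fell in set 1, and 1 rose in set 3. RRAGA (chr9:19049395-19050983, plus strand) had 92.3, 90.4, 91.2 and 92.5 TPM in set 1 HUWE1 libraries, against 97.8, 102, 108 and 103 TPM in controls. In the second table it had 86.7, 95.01, 97.4 and 100.3 TPM in set 2, 91.8, 94.5, 86.5 and 78.9 TPM in set 3 and 121, 99.3, 101 and 84.9 TPM in controls. The set 1 groups did not overlap, and in the second table both HUWE1 groups overlapped the controls, of which replicate 1 was highest and replicate 4 lowest. RRAGA fell by 0.16 ± 0.031 (SE; limma adjusted p = 0.00384) in set 1 and had −0.20 ± 0.092 (SE; limma adjusted p = 0.147) in set 3, or −0.19 without control replicates 1 and 4 (limma adjusted p = 0.0824).

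RRAGC (chr1:38838198-38859823, minus strand) had 50.7, 50.03, 53.2 and 50.2 TPM in set 1 HUWE1 libraries, against 56.7, 55.9, 61.1 and 58.1 TPM in controls. It had 39.7, 39.5, 43.1 and 46.3 TPM in set 2, 41.6, 41.3, 39.1 and 39.2 TPM in set 3 and 60.6, 43.5, 50.6 and 37.99 TPM in the shared controls. Set 1 lay below its controls without overlap, and the shared controls again ran from a high replicate 1 to a low replicate 4. The set 1 fall was 0.18 ± 0.034 (SE; limma adjusted p = 0.00371), and the set 3 value of −0.23 ± 0.110 (SE; limma adjusted p = 0.156) did not pass, nor did −0.22 without control replicates 1 and 4 (limma adjusted p = 0.0590). RRAGB rose by 0.20 ± 0.058 (SE; limma adjusted p = 0.0241) in set 1 and 0.22 ± 0.042 (SE; limma adjusted p = 0.0146) in set 3, or 0.24 without control replicates 1 and 4 (limma adjusted p = 0.0135). RRAGB made up 12.3 ± 0.4997% of the TPM of the pair in set 1 HUWE1 libraries and 9.71 ± 0.667% in controls, and 15.01 ± 0.760% in set 3 and 11.6 ± 1.71% in its controls. RRAGD was not called in any set, at −0.02 ± 0.044 (SE; limma adjusted p = 0.727) in set 1 and 0.03 ± 0.052 (SE; limma adjusted p = 0.677) in set 3.

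All 3 folliculin complex transcripts rose in set 1, and 1 of them, FNIP1, in set 3. FLCN encodes folliculin, a tumour suppressor that acts on RagC and RagD (chr17:17212212-17237188, minus strand). It had 39.7, 42.1, 40.7 and 40.7 TPM in set 1 HUWE1 libraries, against 36.03, 35.9, 35.3 and 35.6 TPM in controls. It had 24.4, 23.3, 25.3 and 25.98 TPM in set 2, 24.1, 24.6, 23.2 and 23.6 TPM in set 3 and 27.6, 24.4, 25.2 and 22.5 TPM in the shared controls. Set 1 stood clear of its controls by more than 3 TPM, and in the second table the 3 groups overlapped. FLCN rose by 0.19 ± 0.027 (SE; limma adjusted p = 0.000896) in set 1, and set 3 had −0.06 ± 0.058 (SE; limma adjusted p = 0.506) with a 95% interval of −0.18 to 0.07.

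FNIP2 encodes a partner of folliculin (chr4:158769138-158908049, plus strand). It had 46.7, 45.2, 48.4 and 48.2 TPM in set 1 HUWE1 libraries, against 37.9, 38.9, 42.7 and 40.2 TPM in controls. Values in the second table were 36.1, 32.02, 35.2 and 37.2 TPM in set 2, 39.03, 36.2, 36.7 and 36.1 TPM in set 3 and 39.8, 35.7, 38.2 and 32.2 TPM in controls. Set 1 lay above its controls without overlap, and the others overlapped. FNIP2 rose by 0.24 ± 0.040 (SE; limma adjusted p = 0.00220) in set 1 and had 0.02 ± 0.065 (SE; limma adjusted p = 0.814) in set 3. FNIP1, the other partner, rose by 0.23 ± 0.059 (SE; limma adjusted p = 0.0146) in set 1 and 0.27 ± 0.060 (SE; limma adjusted p = 0.0233) in set 3, or 0.25 without control replicates 1 and 4 (limma adjusted p = 0.028). In set 2 FNIP1 had 0.17 ± 0.060 (SE; limma adjusted p = 0.492), and with ATP6V0E2 and MLST8 it made up the 3 members there with an unadjusted p under 0.05.

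No GATOR1 transcript passed the test in any set, by limma's adjusted p, with 0, 0 and 1 of 3 at an unadjusted p under 0.05 in sets 1, 2 and 3. NPRL2 (chr3:50347330-50351091, minus strand) had 35.98, 37.2, 35.4 and 37.2 TPM in set 1 HUWE1 libraries, against 37.5, 36.7, 37.1 and 37.5 TPM in controls. It had 30.9, 33.2, 32.5 and 31.4 TPM in set 2, 29.6, 30.3, 28.4 and 29.1 TPM in set 3 and 31.3, 32.2, 31.6 and 31.3 TPM in the shared controls. Every set 3 library was below every control, and sets 1 and 2 overlapped theirs. The log2 fold change was −0.10 ± 0.037 (SE; limma adjusted p = 0.0784) in set 3, or −0.12 without control replicates 1 and 4 (limma adjusted p = 0.0875), and −0.03 ± 0.027 (SE; limma adjusted p = 0.459) in set 1. For DEPDC5 and NPRL3 the values lay between −0.07 and 0.10 over the 3 sets.

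Of the mTORC1 core, MLST8 was lower in sets 1 and 3, and MTOR and RPTOR were not called. MLST8 encodes the small subunit that sits on the kinase domain (chr16:2204248-2209416, plus strand). It had 87.7, 96.04, 89.3 and 91.2 TPM in set 1 HUWE1 libraries, against 105, 106, 99.1 and 103 TPM in controls. It had 73.95, 80.9, 79.2 and 77.6 TPM in set 2, 70.5, 78.1, 68.1 and 66.9 TPM in set 3 and 95.2, 85.04, 83.8 and 80.6 TPM in the shared controls. Sets 1 and 3 did not overlap their controls, and in set 2 the highest library was just above the lowest control. MLST8 fell by 0.18 ± 0.033 (SE; limma adjusted p = 0.00338) in set 1 and 0.28 ± 0.060 (SE; limma adjusted p = 0.0210) in set 3, or −0.25 without control replicates 1 and 4 (limma adjusted p = 0.0196). MTOR, the kinase, had 0.04 ± 0.030 (SE; limma adjusted p = 0.367) in set 1 and 0.01 ± 0.054 (SE; limma adjusted p = 0.917) in set 3, and RPTOR, which binds substrates, had −0.06 ± 0.037 (SE; limma adjusted p = 0.265) and −0.00 ± 0.050 (SE; limma adjusted p = 0.997).

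In the TSC and RHEB group, TSC1 rose and RHEB fell in set 1, and none was called in sets 2 and 3, where 0 of 3 had an unadjusted limma p under 0.05. TSC1 encodes the scaffold of the TSC complex (chr9:132891348-132946874, minus strand). It had 20.7, 21.2, 21.2 and 21.2 TPM in set 1 HUWE1 libraries, against 19.5, 18.9, 18.97 and 18.7 TPM in controls. It had 13.97, 12.9, 13.8 and 14.8 TPM in set 2, 14.4, 14.002, 13.8 and 13.8 TPM in set 3 and 13.2, 14.05, 14.4 and 13.2 TPM in the shared controls. Set 1 lay above its controls by about 1 TPM, and the second table's groups lay over each other. TSC1 rose by 0.14 ± 0.029 (SE; limma adjusted p = 0.00594) in set 1 and had 0.03 ± 0.049 (SE; limma adjusted p = 0.704) in set 3. RHEB fell by 0.13 ± 0.038 (SE; limma adjusted p = 0.0258) in set 1, with overlapping groups, and had −0.00 ± 0.032 (SE; limma adjusted p = 0.961) in set 3. TSC2, which holds the domain that turns RHEB off, had 0.02 ± 0.029 (SE; limma adjusted p = 0.582) in set 1.

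**Figure D3:**
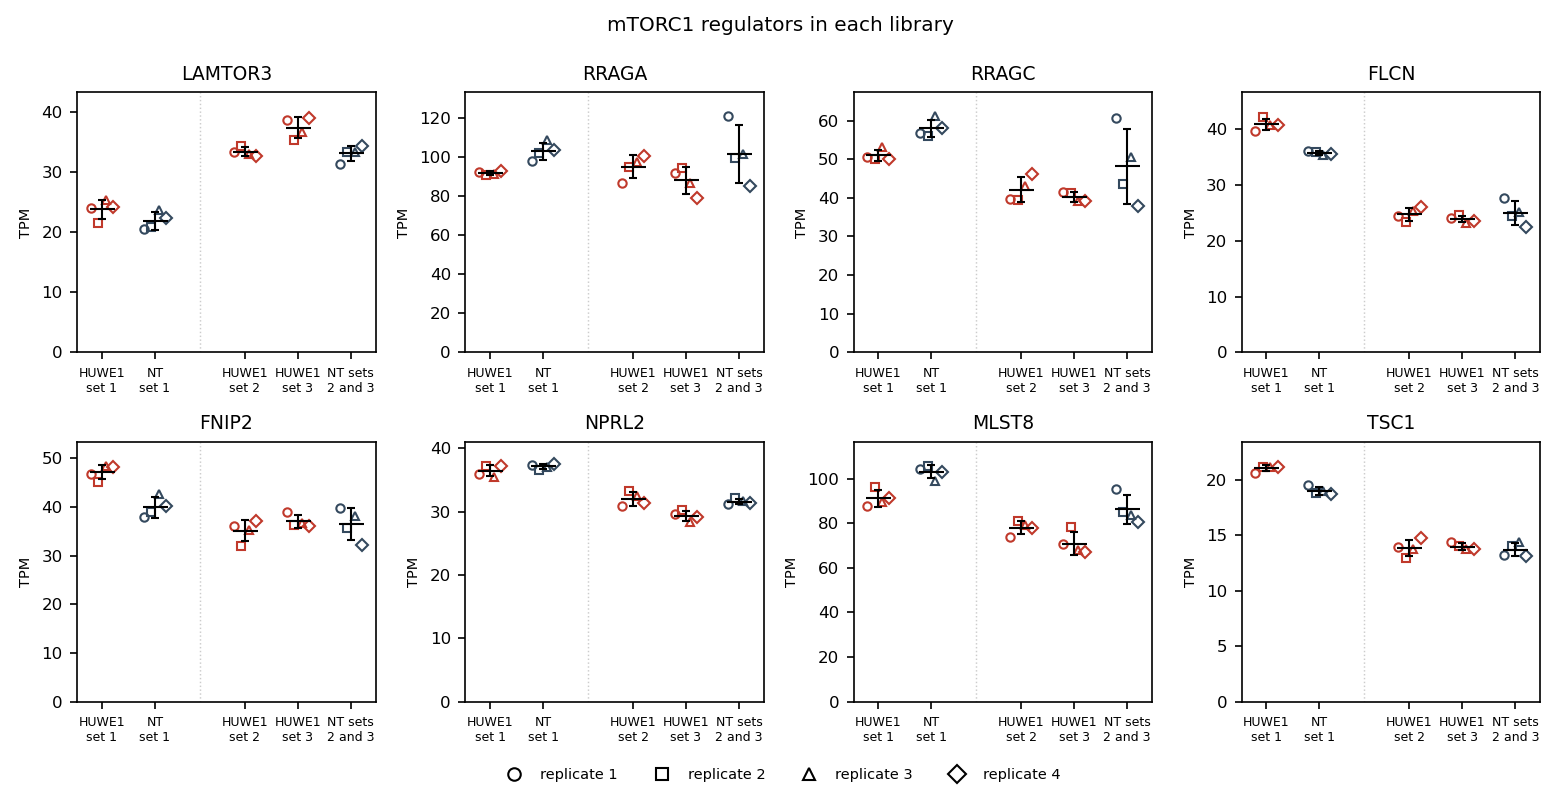
TPM (y axis, from 0) of 8 Ragulator, Rag, folliculin, GATOR1, mTORC1 and TSC genes in each library, HUWE1 siRNA in red and non-targeting siRNA (NT) in dark blue, with replicates 1 to 4 as symbols and the mean ± SD in black. The dotted line separates the 2 tables, which have separate controls. FLCN, FNIP2 and TSC1 are above their controls in set 1, RRAGA, RRAGC and MLST8 below, and the shared controls of RRAGA and RRAGC spread most.

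The 4 symbols matched by prefix alone are not subunits. ATP6V0E2-AS1 is transcribed from the other strand of ATP6V0E2 and fell by 0.23 ± 0.059 (SE; limma adjusted p = 0.0151) in set 1, and in the second table its shared controls alone lay between 3.79 TPM in replicate 3 and 9.40 TPM in replicate 4. Its set 3 value was 0.49 ± 0.230 (SE; limma adjusted p = 0.150), and without control replicates 1 and 4 it was 0.85 (limma adjusted p = 0.0157). ATP6V1B1-AS1 and the readthrough ATP6V1G2-DDX39B were not called. Whether the authors' counting used the strand is not given, so reads of ATP6V0E2 and ATP6V0E2-AS1 cannot be told apart. Among the other called members and NPRL2, the same limit holds for ATP6V0A2, ATP6V1A, ATP6V1C1, ATP6V1D, FLCN, FNIP2, MLST8, NPRL2, RHEB and TSC1. These overlap a gene on the other strand in GENCODE release 29, while ATP6V0C, ATP6V0E1, ATP6V0E2, FLCN, FNIP1 and RRAGC overlap one on the same strand. Members that were not called have overlaps too, among them ATP6V1F, MTOR and TSC2 on the other strand and ATP6V0A1 and ATP6V1G2 on the same strand. ATP6V0C, ATP6V0E1, ATP6V1E1, ATP6V1G1, LAMTOR3, LAMTOR5 and RHEB have named pseudogenes that could share their reads.

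The same pathway beyond the members was followed in 6 further lists. In the order below, 9.09%, 33.3%, 42.9%, 20%, 33.3% and 25% of their tested genes were called in set 1, against 30.3% of all genes. In set 3 these shares were 9.09%, 33.3%, 28.6%, 30%, 0% and 0%, against 11.6% of all genes. Without control replicates 1 and 4, 20.6% of all genes were called. Of 11 V-ATPase assembly and RAVE factors, 1 rose in set 1 and 1 in set 3, with 0 lower. The set 1 gene was TCIRG1, which encodes a further form of subunit a rather than an assembly factor, at 0.36 ± 0.057 (SE; limma adjusted p = 0.00143), and the set 3 gene was VMA21, an assembly factor of V0, at 0.17 ± 0.043 (SE; limma adjusted p = 0.0304), or 0.21 without control replicates 1 and 4 (limma adjusted p = 0.0187). Of 9 GATOR2 and KICSTOR genes, 2 rose and 1 fell in set 1, and 1 rose and 2 fell in set 3, or 0 and 2 without control replicates 1 and 4. WDR59 of GATOR2 rose by 0.18 ± 0.032 (SE; limma adjusted p = 0.00276) in set 1 and SEC13, shared with the nuclear pore, fell by 0.21 ± 0.039 (SE; limma adjusted p = 0.0146) in set 3, with −0.24 without control replicates 1 and 4 (limma adjusted p = 0.00782). KICS2, listed as C12orf66, fell in both, by 0.37 ± 0.058 (SE; limma adjusted p = 0.00150) in set 1 and 0.26 ± 0.060 (SE; limma adjusted p = 0.0244) in set 3, with −0.33 without control replicates 1 and 4 (limma adjusted p = 0.00782). Of 7 amino acid sensors, 2 rose and 1 fell in set 1, and 2 rose in set 3, or 3 without those controls. The leucine sensor family member SESN1 rose by 0.17 ± 0.038 (SE; limma adjusted p = 0.00870) in set 1 and 0.22 ± 0.052 (SE; limma adjusted p = 0.0271) in set 3, with 0.23 without control replicates 1 and 4 (limma adjusted p = 0.0270). SESN2 fell by 0.29 ± 0.044 (SE; limma adjusted p = 0.00133) in set 1. SLC38A9, the lysosomal arginine sensor, rose by 0.29 ± 0.060 (SE; limma adjusted p = 0.0181) in set 3, with 0.29 without control replicates 1 and 4 (limma adjusted p = 0.0183).

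Among 10 other mTOR complex members and mTORC1 regulators, 2 fell in set 1 and 3 in set 3, or 4 without control replicates 1 and 4, with 0 higher. That is 20% in set 1 and 30% in set 3, against 30.3% and 11.6% of all genes. DDIT4, a stress-induced inhibitor of mTORC1 that acts through TSC, averaged 724 ± 74.7 TPM in set 1 HUWE1 libraries and 1196 ± 43.3 TPM in controls (SD, n = 4 each). It averaged 1242 ± 178 TPM in set 2, 829 ± 88.6 TPM in set 3 and 1475 ± 378 TPM in the shared controls, where replicate 1 was highest and replicate 4 lowest. Its log2 fold change was −0.73 ± 0.064 (SE; limma adjusted p = 9.25e-05) in set 1 and −0.80 ± 0.165 (SE; limma adjusted p = 0.0183) in set 3, larger in size than that of any member, with −0.84 without control replicates 1 and 4 (limma adjusted p = 0.00539). MAPKAP1, a subunit of the sister complex mTORC2, fell by 0.12 ± 0.031 (SE; limma adjusted p = 0.0187) in set 1 and 0.17 ± 0.034 (SE; limma adjusted p = 0.0157) in set 3, with −0.18 without control replicates 1 and 4 (limma adjusted p = 0.0185). DEPTOR, an inhibitor of the kinase, fell by 0.31 ± 0.063 (SE; limma adjusted p = 0.0179) in set 3, with −0.39 without control replicates 1 and 4 (limma adjusted p = 0.00814). Of the 3 tested MiT/TFE factors, which switch on lysosomal genes when mTORC1 is off, MITF fell by 0.22 ± 0.055 (SE; limma adjusted p = 0.0144) in set 1, and TFEB and TFE3 were not called. Of 8 mTORC1 substrates, EIF4EBP1 and GRB10 fell in set 1, by 0.38 ± 0.037 (SE; limma adjusted p = 0.000146) and 0.15 ± 0.026 (SE; limma adjusted p = 0.00232), and 0 were called in set 3, where 1 had an unadjusted limma p under 0.05. In set 2 none of the lists had a called gene, with 0, 2, 0, 2, 0 and 1 genes at an unadjusted limma p under 0.05 in the order of the lists above.

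Set 3 was also compared with set 2 directly, since a call in 1 set and not in the other does not show that they differ. None of the 45 members passed by limma's adjusted p, and 0.517% of all genes were called. At an unadjusted p under 0.05 there were 14 members, against 15.8% of all genes. The 4 set 3 values lay all above the 4 set 2 values for 9 members and all below for 2, against 8.13% and 5.05% of all genes, 13.2% in all. The difference was 0.40 ± 0.090 (SE; limma adjusted p = 0.0724) for ATP6V1D and 0.32 ± 0.070 (SE; limma adjusted p = 0.0716) for ATP6V0D1. When only these 2 groups entered the model, 2.15% of all genes were called and 3 members, or 6.67%, passed, ATP6V1D at 0.40 (limma adjusted p = 0.0111), ATP6V0D1 at 0.32 (limma adjusted p = 0.0279) and ATP6V1A at 0.23 (limma adjusted p = 0.0462).

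**Figure D4:**
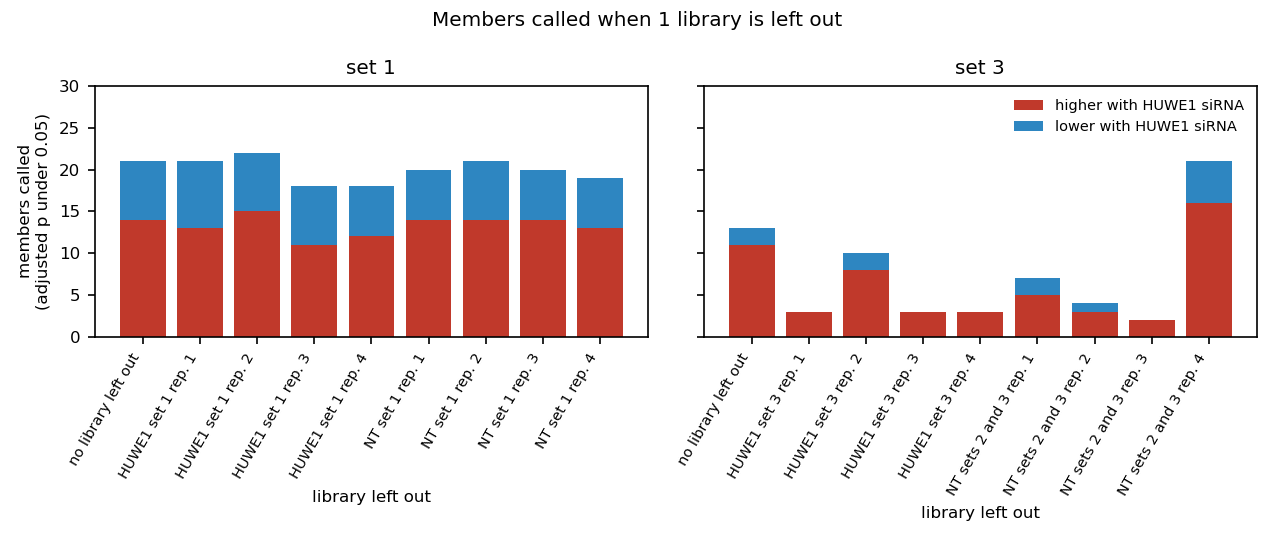
Number of members with a limma adjusted p under 0.05 (y axis) with all libraries and with each library left out in turn (x axis), in set 1 (left) and set 3 (right), stacked as higher (red) and lower (blue) with HUWE1 siRNA. Set 1 stays between 18 and 22, and set 3 runs from 2 to 21. Over all genes, which are not drawn, the share called with a library left out runs from 22.8 to 29.3% in set 1 and from 1.03 to 37.2% in set 3.

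The set 3 counts, of members and of all genes, rested on single libraries. It was 21 without shared control replicate 4, or 46.7% of the 45, where 37.2% of all genes were called. It was 2 without control replicate 3, or 4.44%, where 1.63% of all genes were called. Without HUWE1 replicate 1, 3 or 4 it was 3, or 6.67%, against 3.38%, 1.03% and 1.06% of all genes. ATP6V0D1 and ATP6V1D kept their set 3 calls under every alternative run, and the other 11 lost theirs under at least 1. In set 1, 17 of the 21 calls held under every alternative, and ATP6AP2, ATP6V1H, RHEB and RRAGB did not. No called member changed direction under any alternative.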

How the data were processed

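RNA was isolated with Trizol and isopropanol, made into libraries with a TruSeq stranded mRNA kit and sequenced on an Illumina NovaSeq instrument, per the labels' protocols. That protocol text names siRNAs against UBA1 and E2 enzymes, while titles, descriptions and the series' design name HUWE1, and the groups follow the titles. What the authors deposited were TPM values by gene symbol, 1 table for set 1 and another for sets 2 and 3. Every column summed to the same total, so the depth behind a value is unknown and neither a counting interval nor a floor could be given. The submitters' processing notes name hg38 as the build. Aligner, counter, annotation and strand setting were not given in the sources used here.

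A gene entered the fit of a table where 4 or more of its libraries reached 1 TPM. Values were fitted as log2(TPM + 1) with limma 3.58.1 (R 4.3.3, variance trend) and Benjamini-Hochberg adjustment, using 8 libraries for set 1 and 1 model of 12 for sets 2 and 3, whose comparisons share their controls. The script was tested on simulated data. The labels state biological replicates but not how the cultures were kept apart, so p-values measure the spread between these libraries.

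Per-library values are given for the 14 called members of smallest adjusted p and for the member of smallest p in each role without one. Other called members and genes of the lists were named after their values were seen. The members and lists were chosen with earlier results of these data known. Coordinates are those of GENCODE release 29, on the same build, and promoters are RefSeq's. As alternatives the pseudocount was set to 0.1, the filter was removed or replaced by a mean of 5 TPM, 3 other scalings were used, the variance trend was dropped, replicate numbers entered as a block, only the groups compared were fitted, and each library, or shared control replicates 1 and 4 together, were left out. Tables were handled with Python 3.11.15, pandas 2.3.3 and matplotlib 3.10.9.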

Additional observations from a re-analysis of the deposited data

Results flagged for a closer look

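Single libraries stood apart from the other 3 of their group for 5 members, by a gap to the nearest library that exceeded Dixon's critical share of the group's range. They are 5 of 90 groups examined, and chance flags about 1 in 20 of independent groups. These groups are not independent, because genes share libraries, and several flags fell on the same library, set 2 HUWE1 siRNA replicate 1. ATP6V1G1 in set 1 with HUWE1 siRNA had 171 TPM in replicate 4, with a ratio of 0.967. In set 2 with HUWE1 siRNA, replicate 1 was the high library for ATP6V1D at 34.7 TPM with 0.938, for ATP6V1E1 at 97.9 TPM with 0.901 and for ATP6V1A at 57.2 TPM with 0.899. TSC1 in set 1 with HUWE1 siRNA was low in replicate 1, at 20.7 TPM with a ratio of 0.884.

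For 2 named members each of the 4 HUWE1 siRNA libraries lay on 1 side of the control mean in set 1 and on the other side in another set. The differences were not tested, because the sets come from separate tables with separate controls. FLCN had a log2 fold change of 0.19 in set 1 and −0.055 in set 3, where it was not called and the groups overlapped. ATP6V1E1 had −0.16 in set 1, 0.17 in set 2, where it was not called, and 0.45 in set 3.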

How the results depend on the processing

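Set 1 called between 18 and 23 members under every alternative, between 18 and 22 with each library left out, and set 2 called 0 under all of them, by limma. In set 1 that was 37.5 to 53.7% of the members tested, while 13 to 37.8% of all genes were called. Both shares were lowest without the filter, with 18 of 48 members, and highest at a mean of 5 TPM or more, with 22 of 41. With each library left out they were 40 to 48.9% of members and 22.8 to 29.3% of all genes. In set 2 the alternatives called 0.00631 to 0.0369% of all genes. Set 3, with 13 members called, had 8 without the filter on low values, 5 with a replicate block and 4 when only its own HUWE1 libraries and the shared controls were fitted. These are 16.7%, 11.1% and 8.89% of the members tested, while 2.4%, 4.37% and 2.31% of all genes were called, against 11.6% as reported. With each library left out it called between 2 and 21, with 7 without shared control replicate 1, 4 without replicate 2 and 10 without HUWE1 replicate 2, where 4.72%, 2.5% and 8.07% of all genes were called. Set 3 against set 2 called 0 except for 3 when only those groups were fitted. The cause of these changes was not tested. Same-numbered deviations correlated between 0.0002 and 0.052 in set 1, and with the block set 1 still called 21. In set 3 they correlated between −0.027 and 0.407, and replicates 1 and 4 were each closest to the control of the same number. Replicates 2 and 3 of set 3 were closest to controls 1 and 4, and those of set 2 to controls 4 and 1. In set 2, replicates 1 and 4 had −0.427 and −0.481 with their own number, and each was closest to the control numbered as the other. These values do not settle whether replicate numbers pair libraries in the second table. No member reversed in a set where it was called, and members were not followed in sets where they were not called. HUWE1 was lower in each set under every alternative, between −0.97 and −0.77 on the log2 scale. Depth is unknown, and the log2(TPM + 1) scale limits what can be seen for members near 1 TPM.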
